A study of Mus musculus with 30 samples.

Results

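The genes described here make cholesterol and fatty acids: 29 genes listed by symbol, of 18193 genes measured on the arrays. Each gene was followed through 1 probe set annotated with its symbol alone, the brightest over all 30 arrays. The members were grouped by their step. The 17 sterol enzymes comprise the mevalonate steps, the closing of squalene to lanosterol and the conversion of lanosterol to cholesterol. The 6 fatty acid enzymes make, lengthen and desaturate fatty acids, and the other 6 genes are the regulators of the pathway and 1 sterol carrier. All 29 were measured, with log2 intensities from 7.40 to 14.23, above the lower quartile of every array (4.73 to 4.85).

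Cells build cholesterol from acetyl-CoA through mevalonate, isoprenoid diphosphates, squalene and lanosterol, and fatty acids from the same acetyl-CoA through malonyl-CoA. Both branches are under the SREBP transcription factors, which are held in the endoplasmic reticulum by Scap and the Insig proteins while sterols are plentiful and released to the nucleus when sterols run low. SREBP1 is known mainly for fatty acid genes and SREBP2 for sterol genes, and SREBPs act on promoters together with the factors NF-Y and Sp1. Dividing embryonic stem cells need both products for new membranes.

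The samples were KH2 mouse embryonic stem cells, a line of embryonic stem cells grown on feeder fibroblasts, taken along a retinoic acid (RA) course at 8, 12, 16, 24, 36, 48, 60 and 72 h. Every time had 3 arrays, lettered A to C, except 12 h and 24 h, which had 6, lettered A to F. The 8 h arrays are labelled baseline and the later ones retinoic acid, at 0.3 uM per the protocol. The protocol speaks of 2, 4 and 6 h of treatment, and the labels do not say whether RA was present at 8 h. No untreated arrays at later times were analysed here, so time in culture and RA cannot be told apart. The cells were plated on gelatin for 30 minutes before lysis, a step the labels describe with RNA from the attached cells in one place and from the medium in another. The labels do not say that the arrays of a time came from separate cultures, so a p-value here covers the spread between arrays of a group, which may be technical. RNA was from whole cultures, in which fewer cells of a type and less RNA per cell cannot be told apart.

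The arrays fell into 2 sets by their spiked control RNAs. The BioDn control exceeded BioC by 0.99 to 1.07 in 12 arrays (8 h, 12 h A to C, 16 h and 24 h A to C) and by 1.34 to 1.63 in the other 18 (12 h D to F, 24 h D to F and 36 h to 72 h). Changes were therefore measured within a set, and the first set covers 8 h to 24 h while the second covers 12 h to 72 h. Among the stem cells' own markers within the second set, Pou5f1 had means of 13.40 at 12 h and 11.44 at 72 h. The means were 12.45 and 12.34 for Nanog, 14.60 and 14.21 for Dppa5a and 13.25 and 10.13 for Tdgf1. Of 8 stem cell markers, 7 fell between these times by limma's test (median -0.83), where 34.5% of all genes fell.

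Promoter sequences frame what these genes share. RefSeq windows of the GRCm38.p6 build, from 250 bases before to 50 after each start, were found for 23 of the 29 members. The 6 without one were Fdps, Fdft1, Sqle, Scd1, Scd2 and Stard4. The 250 bases before the start are shown for 4 sterol enzymes (Lss, Tm7sf2, Dhcr7 and Mvd) and 2 fatty acid enzymes (Acaca and Elovl6). Within their lists these had the largest changes among the 23. The comparisons used were 8 h to 24 h, 12 h to 24 h and 24 h to 72 h. Of the fatty acid enzymes, Scd1 and Scd2 changed more but had no window. Hmgcs1 is also shown, chosen after its match was seen. Where a gene had several windows, the first listed is shown. Capitals mark the letters searched on both strands: CCAAT (or ATTGG), the core bound by NF-Y, GGGCGG (or CCGCCC), bound by Sp1, and TCACNCCAC, the sterol element bound by SREBP. Lss lies at chr10:76531355-76531604 and Dhcr7 at chr7:143822917-143823166 on the plus strand, Tm7sf2 at chr19:6067851-6068100 on the minus strand and Mvd at chr8:122443423-122443672 on the minus strand. Hmgcs1 lies at chr13:119690101-119690350, Acaca at chr11:84195188-84195437 and Elovl6 at chr3:129532136-129532385, all on the plus strand.
Lss: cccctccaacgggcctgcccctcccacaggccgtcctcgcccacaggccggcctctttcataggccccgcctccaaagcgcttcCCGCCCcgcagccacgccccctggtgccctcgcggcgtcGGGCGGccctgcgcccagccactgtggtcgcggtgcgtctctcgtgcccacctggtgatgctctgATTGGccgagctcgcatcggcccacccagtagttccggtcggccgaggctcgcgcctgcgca
Tm7sf2: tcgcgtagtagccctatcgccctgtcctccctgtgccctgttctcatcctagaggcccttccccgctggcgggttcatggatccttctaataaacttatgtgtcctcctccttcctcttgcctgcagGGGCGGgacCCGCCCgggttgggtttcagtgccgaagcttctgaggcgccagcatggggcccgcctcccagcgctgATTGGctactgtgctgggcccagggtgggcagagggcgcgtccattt
Dhcr7: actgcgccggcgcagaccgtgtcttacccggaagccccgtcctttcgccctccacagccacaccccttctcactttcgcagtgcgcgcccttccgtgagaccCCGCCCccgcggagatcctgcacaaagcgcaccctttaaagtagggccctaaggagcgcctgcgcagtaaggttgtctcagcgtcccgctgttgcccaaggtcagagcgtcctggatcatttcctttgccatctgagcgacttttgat
Mvd: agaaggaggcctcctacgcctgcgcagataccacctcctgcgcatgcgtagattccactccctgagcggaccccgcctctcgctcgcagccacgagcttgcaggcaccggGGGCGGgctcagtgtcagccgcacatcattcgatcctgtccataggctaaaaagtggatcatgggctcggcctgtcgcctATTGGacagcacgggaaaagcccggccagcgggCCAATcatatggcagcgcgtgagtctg
Hmgcs1: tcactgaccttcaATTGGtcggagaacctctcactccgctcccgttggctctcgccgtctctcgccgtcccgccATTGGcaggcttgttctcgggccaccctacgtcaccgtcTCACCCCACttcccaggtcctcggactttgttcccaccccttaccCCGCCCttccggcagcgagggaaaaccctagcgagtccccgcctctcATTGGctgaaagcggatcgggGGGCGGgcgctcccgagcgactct
Acaca: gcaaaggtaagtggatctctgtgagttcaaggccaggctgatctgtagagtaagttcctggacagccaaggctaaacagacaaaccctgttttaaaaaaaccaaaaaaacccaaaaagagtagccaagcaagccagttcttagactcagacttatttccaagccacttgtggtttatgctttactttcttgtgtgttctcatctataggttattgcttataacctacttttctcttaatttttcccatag
Elovl6: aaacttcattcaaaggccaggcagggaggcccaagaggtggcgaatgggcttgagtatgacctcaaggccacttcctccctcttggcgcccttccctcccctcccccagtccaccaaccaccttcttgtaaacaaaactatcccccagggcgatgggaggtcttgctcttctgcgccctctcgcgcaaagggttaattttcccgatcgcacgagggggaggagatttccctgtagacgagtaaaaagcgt

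CCAAT occurred in at least 1 window of 20 of the 23 members, against 41.1% of the 27025 genes with a window. All 14 sterol enzymes with a window held it, as did 2 of 4 fatty acid enzymes and 4 of 5 regulators, but Dhcr7 held it in only 1 of its 3 windows and not in the one shown. Over the first listed window of each gene, CCAAT was in 19 members, 13 of them sterol enzymes, against 37.9% of genes. GGGCGG occurred in 19 of 23 members against 38.2% of genes, in 13 of 14 sterol enzymes and in 1 of 4 fatty acid enzymes. The SREBP letters were found in Hmgcs1 alone, beginning at position -137 from the start, against 1.44% of genes. The E-box CACGTG was found in 5 members (Dhcr7, Hsd17b7, Insig1, Sc5d and Scap) against 8.09% of genes. The Lss stretch shows 1 inverted CCAAT with Sp1 letters on either strand, Mvd shows CCAAT in both orientations, Dhcr7 shows Sp1 letters alone, and the Acaca and Elovl6 stretches show none of the letters. These matches describe short windows and are neither sites shown to be bound nor causes of a change.

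In the second array set the pathway rose from 12 h to 36 h and fell after it. Between 12 h and 36 h, 24 of the 29 members rose and none fell by limma's test, where 23.1% of all genes rose. A call is an adjusted p under 0.05 (Benjamini-Hochberg, 18193 genes), and at an unadjusted p under 0.05 limma gave 25 rises and 0 falls. Between 36 h and 72 h, 23 of the 29 fell, where 20.2% of all genes fell, and Scap alone rose, where 15.5% of all genes rose. The comparisons with 36 h were chosen after the courses were seen, and both contain the same 36 h arrays. The 36 h to 72 h arrays are lettered A to C. In changes from 12 h or 24 h (D to F) to any of them, time and letter cannot be told apart. The 36 h mean was the highest of the 6 second-set groups for 22 of the 29 members, against 12.3% of all genes. Those 22 were 14 of 17 sterol enzymes, 5 of 6 fatty acid enzymes and 3 of the other 6 genes. When each array's median over all genes was made equal, 21 members rose to 36 h and Elovl6 fell, with Mvk (0.11), Lss (0.12) and Acaca (0.04) no longer called. With that scaling 2940 of all 18193 genes rose and 7803 fell. The share of risen genes among all called genes went from 51.9% to 27.4%.

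**Figure D1:**
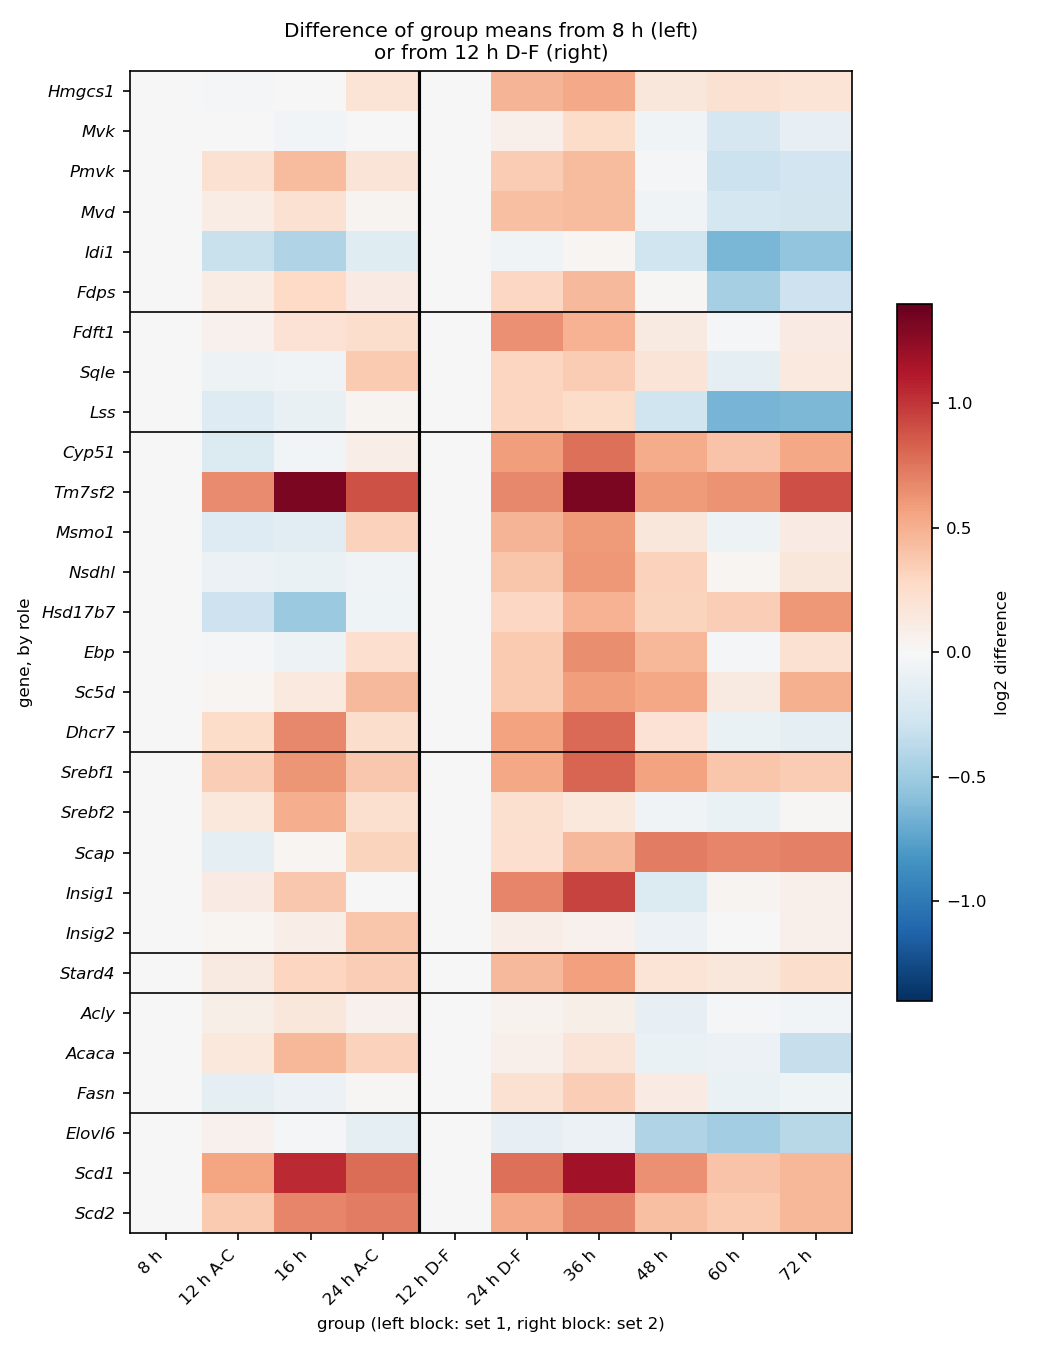
Group means of the 29 genes, as log2 differences from the 8 h mean (left block, first array set) or from the 12 h D to F mean (right block, second array set), with lines between the roles. The 36 h column is the reddest for most genes, and Idi1, Lss and Elovl6 are blue at 60 h and 72 h.

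Other cells' markers moved over the same times. The shares of all genes that rose and fell were 23.1% and 21.4% from 12 h to 36 h, and 15.5% and 20.2% from 36 h to 72 h. Of 12 embryonic fibroblast markers, 4 rose from 12 h to 36 h and 9 from 36 h to 72 h, with none falling. Their mean log2 level per array was 7.50 to 8.38 at 12 h (D to F), 8.59 to 9.14 at 36 h, 9.63 to 10.98 at 48 h and 9.39 to 10.50 at 72 h. Col1a1, a collagen chain of fibroblasts, had means of 8.41 at 12 h (D to F), 9.89 at 36 h and 12.00 at 72 h and rose in both steps, whereas Lum, with means of 5.21, 5.33 and 5.53, was called in neither. Of 8 pluripotent stem cell markers, 7 fell from 12 h to 36 h, from 12.48 to 12.55 per array to 11.51 to 11.59, and 4 fell and 1 rose from 36 h to 72 h. Of 6 neural markers, 5 rose to 36 h, and between 36 h and 72 h 3 rose and 1 fell. Of 11 endoderm markers, 5 rose and 2 fell to 36 h, then 6 rose and 1 fell. The part of these cell types in the lipid gene changes was not tested.

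**Figure D2:**
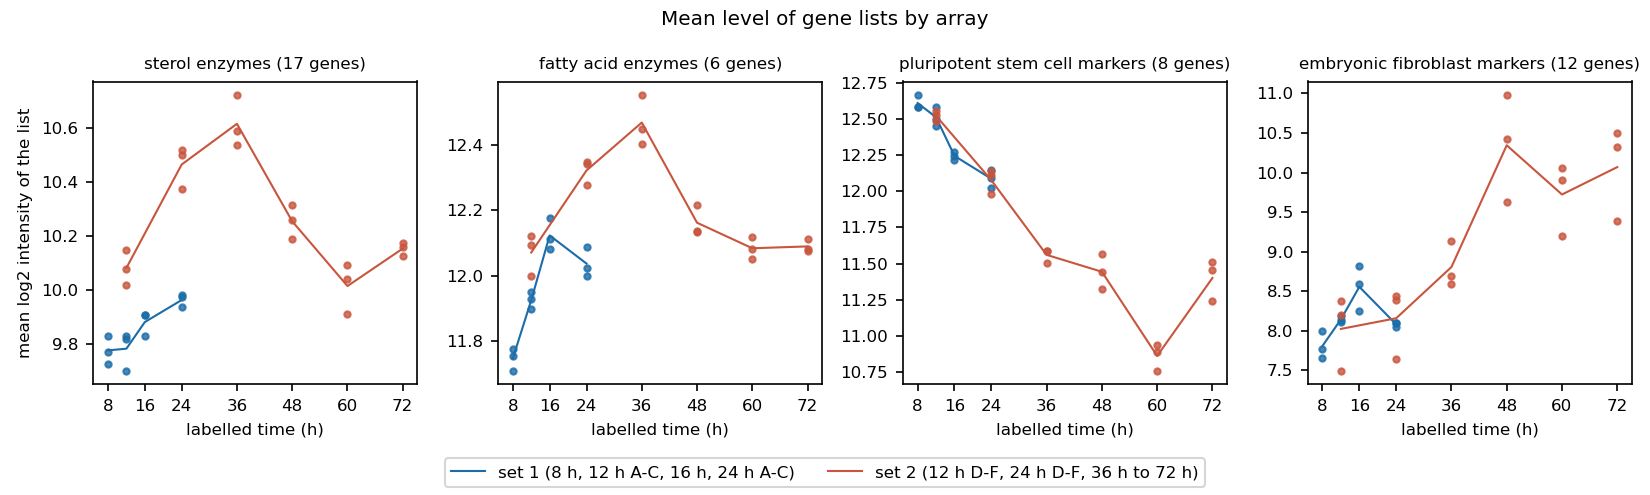
Mean log2 intensity of 4 gene lists in each array against labelled time, with lines through the group means of the first set (blue) and the second set (red). The sterol enzymes peak at 36 h (10.54 to 10.72), the pluripotent markers fall, and the fibroblast markers rise between 36 h and 48 h.

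Of the 6 mevalonate enzymes, 5 rose to 36 h and all 6 fell by 72 h. Hmgcs1, which makes HMG-CoA, was at 12.25, 12.07 and 12.46 at 12 h (D to F), at 12.74, 12.84 and 12.79 at 36 h and at 12.42, 12.49 and 12.43 at 72 h. The 36 h arrays lay above all the others of these groups. The rise was 0.53 ± 0.08 on the log2 scale (SE, adjusted p = 6.51e-06) and the change after it was -0.34 ± 0.08 (adjusted p = 0.00152). Mvk and Pmvk, the kinases that phosphorylate mevalonate, rose by 0.25 ± 0.08 and 0.45 ± 0.07. The Mvk call was lost without array B of 36 h (0.19, adjusted p = 0.0754). The second Mvk probe set gave 0.083 to 36 h and -0.085 from 36 h to 72 h, neither called. Mvd, which decarboxylates the product to isopentenyl diphosphate, rose by 0.44 ± 0.08 and then fell by 0.70 ± 0.08.

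Fdps, which joins isoprenoid units into farnesyl diphosphate, rose by 0.45 ± 0.09 (adjusted p = 0.000106). Its arrays fell from 12.21, 12.35 and 12.19 at 36 h to 11.11, 11.52 and 11.35 at 60 h, below every 12 h array (lowest 11.74). Idi1, the isomerase of isopentenyl diphosphate, did not rise: its arrays were at 11.53, 11.55 and 11.53 at 12 h, 11.44, 11.48 and 11.53 at 24 h and 11.49, 11.65 and 11.53 at 36 h. From this plateau Idi1 fell to 10.71, 10.96 and 11.03 at 60 h, and its change from 36 h to 72 h was -0.58 ± 0.07 (adjusted p = 7.45e-07).

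The 3 enzymes from farnesyl diphosphate to lanosterol all rose to 36 h and all fell by 72 h. Fdft1, squalene synthase, was already highest at 24 h, with 11.90, 11.89 and 11.97 against 11.19, 11.23 and 11.41 at 12 h, a rise of 0.64 ± 0.07 (adjusted p = 2.75e-07). Sqle, squalene epoxidase, rose by 0.35 ± 0.06 to 36 h. Its change from 36 h to 72 h was -0.21 ± 0.06 (adjusted p = 0.00827), and the call was lost without array B of 36 h (-0.17, adjusted p = 0.0573).

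Lss, lanosterol synthase, had one of the deepest falls of the group. Its arrays stood at 9.93, 10.00 and 10.04 at 12 h, at 10.18, 10.36 and 10.21 at 36 h and at 9.32, 9.37 and 9.42 at 72 h. The 72 h arrays lay below every array of both earlier times. From 36 h to 72 h Lss changed by -0.88 ± 0.06 (adjusted p = 1.27e-10), to 0.543 of its 36 h level, and 72 h lay below 12 h by -0.62 ± 0.06 (adjusted p = 6.59e-09).

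All 8 enzymes that turn lanosterol into cholesterol rose to 36 h, by 0.49 to 1.31, and 6 of them fell by 72 h. Tm7sf2, a C14 sterol reductase, rose most of all members: its arrays were at 7.88, 8.12 and 8.11 at 12 h and at 9.07, 9.62 and 9.34 at 36 h. The groups did not overlap, and the rise was 1.31 ± 0.11 (adjusted p = 9.06e-10). At 72 h Tm7sf2 was at 8.91, 9.02 and 8.88, still 0.90 ± 0.11 above 12 h (adjusted p = 1.7e-07). Its change from 36 h to 72 h was -0.41 ± 0.11 (adjusted p = 0.00555), and without array B of 36 h it was -0.27 (adjusted p = 0.0643).

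Dhcr7, the reductase that finishes cholesterol, rose by 0.80 ± 0.07 and then changed by -0.93 ± 0.07 (adjusted p = 2.59e-10), the deepest fall of a member from 36 h to 72 h. Its arrays were at 10.14, 10.05 and 10.18 at 12 h, at 10.93, 11.03 and 10.80 at 36 h and at 9.98, 9.99 and 10.00 at 72 h. The 72 h arrays lay just below the 12 h arrays, a difference that did not pass the test (-0.13 ± 0.07, adjusted p = 0.111). Cyp51, lanosterol demethylase, rose by 0.78 ± 0.08 and kept much of it, at 9.80, 9.80 and 9.84 at 72 h against 9.17, 9.20 and 9.44 at 12 h. The Cyp51 fall from 36 h (-0.23 ± 0.08, adjusted p = 0.0318) lost its call without any one of 5 arrays, B or C of 36 h or any of 72 h (-0.18 to -0.24).

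Msmo1, a methyl sterol oxidase, rose by 0.60 ± 0.09, and Nsdhl, which removes the same methyl groups, by 0.61 ± 0.08. Ebp, the sterol isomerase, rose by 0.65 ± 0.07 and fell by 0.44 ± 0.07. Sc5d, the C5 desaturase, rose by 0.58 ± 0.09 and was still at 9.83, 9.82 and 9.96 at 72 h, with 9.86, 10.05 and 9.96 at 36 h. Its change after 36 h was -0.09 ± 0.09 and did not pass the test. Hsd17b7, a sterol ketone reductase, rose by 0.49 ± 0.11 and had its highest mean at 72 h, but the rise rested on a probe set whose name marks possible cross-hybridisation. Its other 3 probe sets gave 0.15, 0.28 and -0.01 for the same comparison, and none passed the test.

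**Figure D3:**
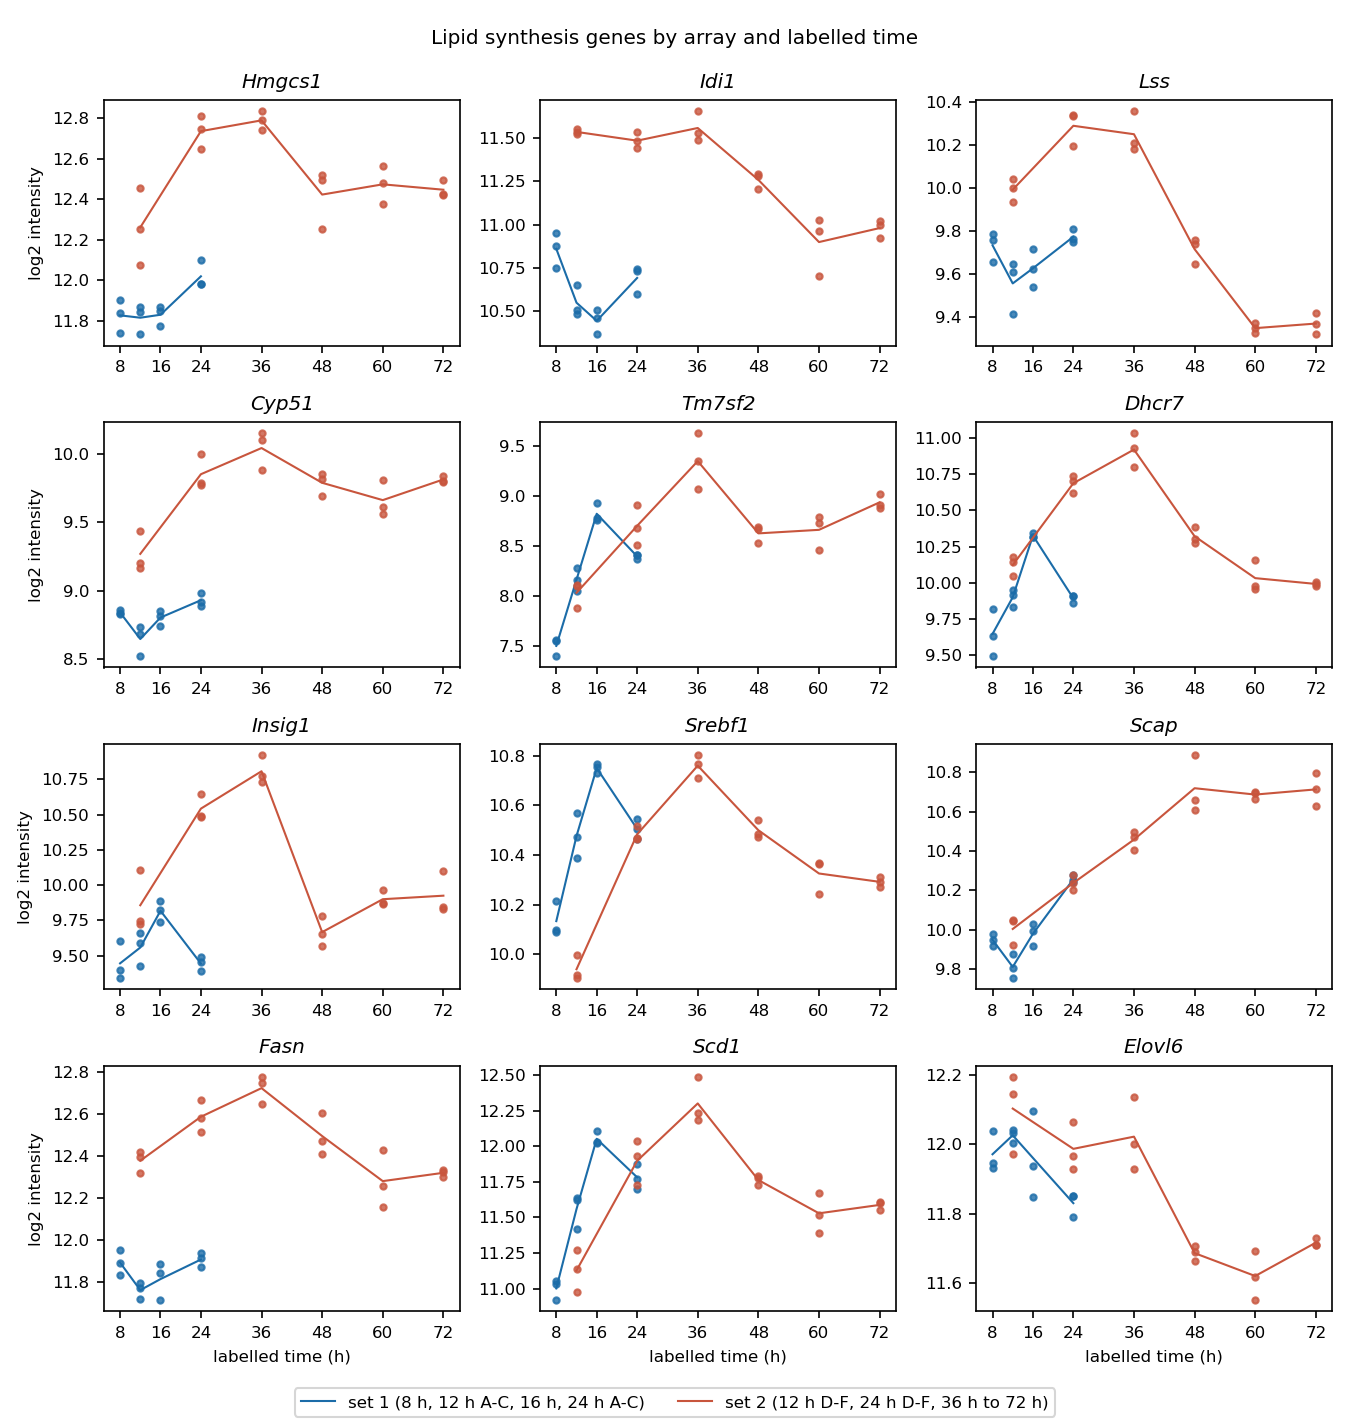
Log2 intensity of 12 members in each array against labelled time, with lines through the group means of the first set (blue) and the second set (red); each panel has its own axis. Lss, Dhcr7, Insig1 and Scd1 peak at 24 h or 36 h in the second set and fall by 60 h, Scap keeps rising to 48 h, and Idi1, Cyp51 and Fasn stand higher in the second set than in the first at 12 h and 24 h.

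Among the 5 regulators, 3 rose to 36 h. Insig1, the sterol-regulated anchor of the SREBPs and itself a known SREBP target, had the largest fall of a member from 36 h to 48 h. Its arrays stood at 9.74, 9.72 and 10.11 at 12 h, at 10.73, 10.92 and 10.77 at 36 h and at 9.66, 9.78 and 9.57 at 48 h. The rise was 0.95 ± 0.09 (adjusted p = 1.27e-08) and the change over the next 12 h was -1.14 ± 0.09 (adjusted p = 1.39e-08), to 0.454 of its 36 h level. Srebf1, which encodes SREBP1, rose by 0.82 ± 0.05 from 9.90, 9.92 and 10.00 to 10.71, 10.77 and 10.80, with no overlap, and remained 0.35 ± 0.05 above 12 h at 72 h.

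Srebf2, which encodes SREBP2, stood 0.15 ± 0.06 above 12 h at 36 h, which did not pass the test (adjusted p = 0.0539). Its second probe set passed it, at 0.33 (adjusted p = 7.12e-05). Scap, the escort of the SREBPs, ran against the group after 36 h: it rose by 0.45 ± 0.06 to 36 h and by another 0.26 ± 0.06 to 48 h. Scap stood at 10.80, 10.71 and 10.63 at 72 h against 10.41, 10.47 and 10.50 at 36 h, but its dimmer second probe set gave -0.24 for that step (not called). Insig2, the second anchor, moved little, at 0.06 ± 0.06 to 36 h and 0.01 ± 0.06 after it, and it was the only member not called by the F test across the second set. That F test called 28 of 29 members, where 67.1% of all genes were called. Stard4, a sterol carrier protein, rose by 0.57 ± 0.08 and fell by 0.33 ± 0.08, though neither of its 2 other probe sets was called in either comparison.

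Of the 6 fatty acid enzymes, 4 rose to 36 h and 5 fell by 72 h. Scd1, a stearoyl-CoA desaturase, was at 10.97, 11.14 and 11.27 at 12 h, at 12.24, 12.49 and 12.18 at 36 h and at 11.61, 11.61 and 11.55 at 72 h. The 3 times did not overlap, with a rise of 1.17 ± 0.09 (adjusted p = 1.41e-10) and then a change of -0.71 ± 0.09 (adjusted p = 9.04e-07). Its second probe set gave 1.08 and -1.34. Scd2, the other desaturase, rose by 0.69 ± 0.05 to 14.22, 14.23 and 14.20 at 36 h, and 72 h remained 0.46 ± 0.05 above 12 h.

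The enzymes of chain building moved less. Fasn, fatty acid synthase, rose by 0.35 ± 0.06 from 12.32, 12.42 and 12.40 to 12.65, 12.75 and 12.78, and then fell by 0.40 ± 0.06. Acaca, acetyl-CoA carboxylase, rose by 0.18 ± 0.06 (adjusted p = 0.0171), a call lost without array D of 12 h (0.17, adjusted p = 0.0584) or array B of 36 h (0.14, adjusted p = 0.0988). Acaca then fell by 0.51 ± 0.06 to 10.44, 10.37 and 10.40 at 72 h, below every 12 h array (lowest 10.70). Acly, which makes cytosolic acetyl-CoA from citrate, passed neither test, at 0.08 ± 0.05 and -0.12 ± 0.05. Elovl6, which lengthens palmitate, did not rise (-0.08 ± 0.07, and -0.22 and called lower with equal array medians). It fell from 11.93, 12.14 and 12.00 at 36 h to 11.71, 11.73 and 11.71 at 72 h (-0.31 ± 0.07, adjusted p = 0.000581). Its other probe sets gave -0.11 and -0.16 for that fall, neither called. The mean of all its probe sets gave -0.19 (adjusted p = 0.208 by limma).

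Set side by side, the sterol enzymes rose by a median of 0.49 to 36 h and the fatty acid enzymes by 0.27, with -0.04 over all genes. From 36 h to 72 h the medians were -0.44 and -0.36, with -0.04 over all genes. The sterol enzymes rose in 16 of 17 cases, all but Idi1, over a range of 0.02 to 1.31. The fatty acid enzymes divided, with 4 of 6 risen, and their range of -0.08 to 1.17 was set by Elovl6 at one end and Scd1 at the other. The median of the 3 desaturation and elongation genes was 0.69 and that of the 3 synthesis genes 0.18. Among the 3 sterol roles, the median rise was 0.63 for the 8 steps from lanosterol to cholesterol, 0.44 for the 6 mevalonate steps and 0.35 for the 3 steps to lanosterol, and the medians of the fall were -0.43, -0.64 and -0.38. No test compares the lists, since the members were chosen with results known.

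**Figure D4:**
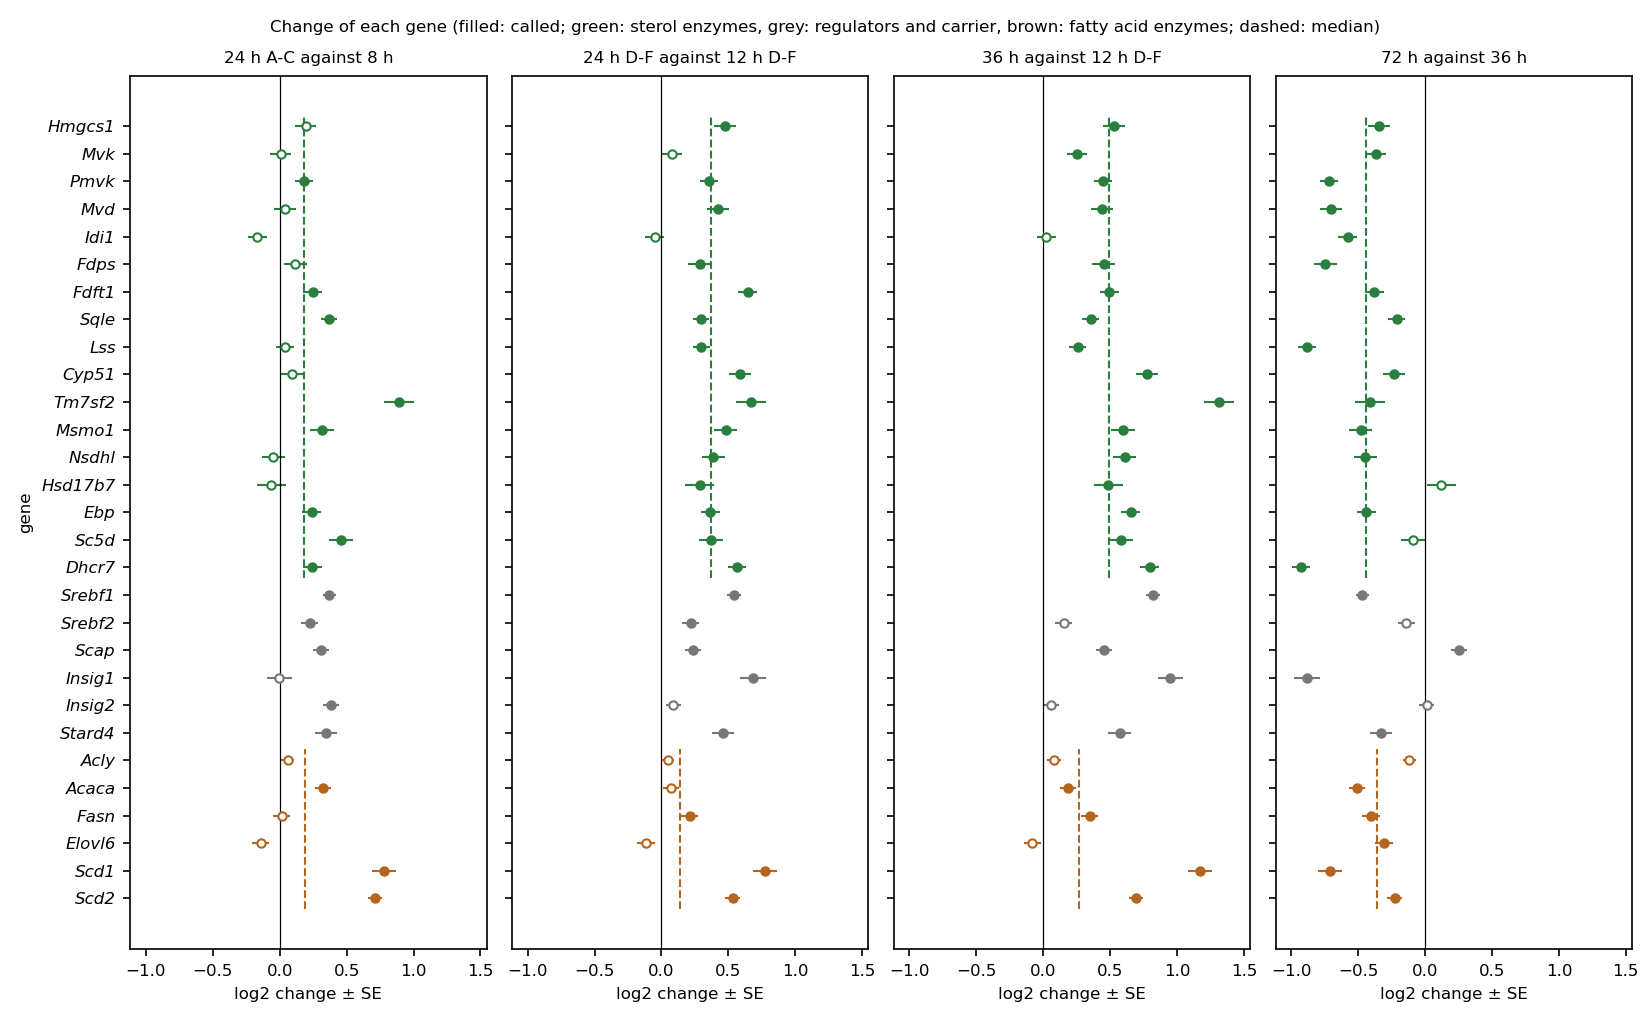
Log2 change with its standard error for each of the 29 genes in 4 comparisons, with sterol enzymes in green, regulators and carrier in grey and fatty acid enzymes in brown; filled points passed the test and dashed lines are list medians. From 12 h to 36 h 16 of 17 sterol enzymes and 4 of 6 fatty acid enzymes lie to the right of 0 and are filled, and from 36 h to 72 h nearly all points lie to the left.

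Most of the rises were present by 24 h. From 12 h to 24 h (D to F), 23 members rose and none fell, where 16% of all genes rose, among them 15 of 17 sterol enzymes (median 0.37) and 3 of 6 fatty acid enzymes (median 0.14). The count of falls was also 0 at an unadjusted p under 0.05. The Hsd17b7 call (0.29, adjusted p = 0.0479) was lost on leaving out most single arrays. Without array D of 12 h the calls of Fdps (0.26), Srebf2 (0.18) and Fasn (0.18) were lost, without E of 24 h those of Fdps (0.23) and Srebf2 (0.19), and without F of 24 h those of Fdps (0.25) and Fasn (0.17). From 24 h to 36 h 6 of these same members rose again (Tm7sf2, Ebp, Dhcr7, Srebf1, Scap and Scd1), where 8.84% of all genes rose. The largest of these was Tm7sf2, at 0.65 ± 0.11.

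More members fell from 36 h to 48 h than in any other step: 23 fell, where 14.5% of all genes fell, and Scap alone rose, where 7.59% rose. All 6 fatty acid enzymes and 13 of 17 sterol enzymes fell in that step, with medians of -0.28 and -0.37. From 48 h to 60 h 11 members fell, 9 of them sterol enzymes, where 13.8% of all genes fell. Ebp and Fdps had the largest, at -0.48 ± 0.07 and -0.48 ± 0.09. From 60 h to 72 h Sqle, Ebp and Sc5d rose by 0.28, 0.23 and 0.37, where 8.54% of all genes rose, and Acaca fell by 0.24, where 2.67% fell. The mean of 9 sterol enzymes was lowest at 60 h. With the array letter as a block among the 36 h to 72 h arrays, the falls of Sqle (-0.17, adjusted p = 0.0244 by limma) and Ebp (-0.19, adjusted p = 0.0188) from 36 h to 48 h and the rise of Hsd17b7 (0.27, adjusted p = 0.0309) from 60 h to 72 h were also called, and no call was lost.

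Measured from 24 h (D to F) to 72 h, 20 members (16 to 20 on leaving out single arrays) fell and 2 rose, Hsd17b7 and Scap, where 24.8% of all genes fell and 21.7% rose. Lss had the largest fall (-0.92 ± 0.06), then Dhcr7 (-0.69 ± 0.07) and Mvd (-0.68 ± 0.08). The Hsd17b7 rise was 0.24 (adjusted p = 0.11) without array C of 72 h. Over the whole of the second set, from 12 h to 72 h, 11 members ended higher and 7 lower, where 26.2% of all genes ended higher and 34.5% lower. The lower ones were Pmvk, Mvd, Idi1, Fdps, Lss, Acaca and Elovl6, so 4 of the 7 were mevalonate enzymes. With equal array medians 8 members were higher and 12 lower, where 3554 of 18193 genes were higher and 10370 lower. The sterol median went from 0.12 to -0.06 with that scaling, and the median over all genes from -0.09 to -0.27.

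In the first array set the changes of the first day were of more than one shape. From 8 h to 24 h (A to C) 16 members rose and none fell (17 and 2 at an unadjusted p under 0.05 by limma), where 23.5% of all genes rose, with medians of 0.18 for sterol and 0.19 for fatty acid enzymes and -0.02 over all genes. Tm7sf2 rose most, from 7.55, 7.40 and 7.56 to 8.37, 8.41 and 8.41 (0.89 ± 0.11, adjusted p = 7.8e-07). Scd1 rose by 0.78 ± 0.09 and Scd2 by 0.71 ± 0.05. When each array's median over all genes was made equal, 8 members rose and 7 fell, where 2371 of 18193 genes rose and 8566 fell. The medians were then 0.00 and 0.01, with -0.20 over all genes. The share of risen genes among all called genes went from 59.8% to 21.7% (46.5% after a new quantile normalization). Tm7sf2, Scd1 and Scd2 rose under both scalings. Calls for Pmvk (0.10) and Dhcr7 (0.17) were lost without array B of 8 h, and that for Pmvk also without array A (0.16) or C (0.18) of 24 h. The F test across the first set called 22 of 29 members, where 55.5% of all genes were called.

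A group of members in the first set peaked at 16 h. Tm7sf2 stood at 8.78, 8.93 and 8.76 at 16 h, above all arrays of 12 h (8.06 to 8.28) and 24 h (8.37 to 8.41). From 16 h to 24 h Tm7sf2, Pmvk, Dhcr7, Srebf1, Srebf2, Insig1 and Scd1 fell, by 0.25 to 0.43, where 16.9% of all genes fell. In the same step Idi1, Sqle, Msmo1, Hsd17b7, Ebp, Sc5d, Scap and Insig2 rose, by 0.25 to 0.47, where 17.4% of all genes rose. Msmo1 shows the second shape, at 10.61, 10.66 and 10.68 at 12 h, 10.56, 10.70 and 10.77 at 16 h and 11.15, 11.13 and 11.16 at 24 h. Enzymes of the same branch, such as Dhcr7 and Sc5d, moved in opposite directions between 16 h and 24 h.

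Earlier steps of the first set were made by few members. From 8 h to 12 h (A to C) 6 rose (Pmvk, Tm7sf2, Dhcr7, Srebf1, Scd1 and Scd2), where 12.9% of all genes rose, and Idi1 fell by 0.31 ± 0.07, where 6.67% fell. With equal array medians these counts were 4 and 7, where 1293 of 18193 genes rose and 2875 fell. After a new quantile normalization they were 5 and 5, where 1813 genes rose and 1656 fell. From 12 h to 16 h 9 members rose, where 12.4% of all genes rose, Tm7sf2 again most (0.66 ± 0.11). From 12 h to 24 h (A to C) 10 rose, where 17.9% of all genes rose, and Elovl6 fell by 0.20 ± 0.07, where 14.3% fell. Between 8 h and 24 h limma called 0 of 12 fibroblast markers, and 0 at an unadjusted p under 0.05. Of 8 pluripotent markers 6 fell, where 15.8% of all genes fell. Of 6 neural markers 5 rose, and of 11 endoderm markers 5 rose and 1 fell, where 23.5% of all genes rose. The part of these cell types in the result was not tested.

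Arrays of the same labelled time differed between the sets. At 12 h, the second set (D to F) was higher than the first (A to C) for 15 members and lower for 4, where 17.2% of all genes were higher and 21.7% lower. Idi1 had the largest gap, at 11.53, 11.55 and 11.53 against 10.51, 10.65 and 10.48 (0.99 ± 0.07, adjusted p = 2.33e-10). At 24 h, 20 members were higher and only Insig2 lower, where 13.3% of all genes were higher and 20.4% lower, and 15 of 17 sterol enzymes were among those higher (median 0.50). Insig1 was highest there, at 10.49, 10.49 and 10.65 against 9.45, 9.49 and 9.39 (1.10 ± 0.10, adjusted p = 5.54e-09). The labels do not say what the letters stand for, and letters, array set and culture cannot be told apart.

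**Figure D5:**
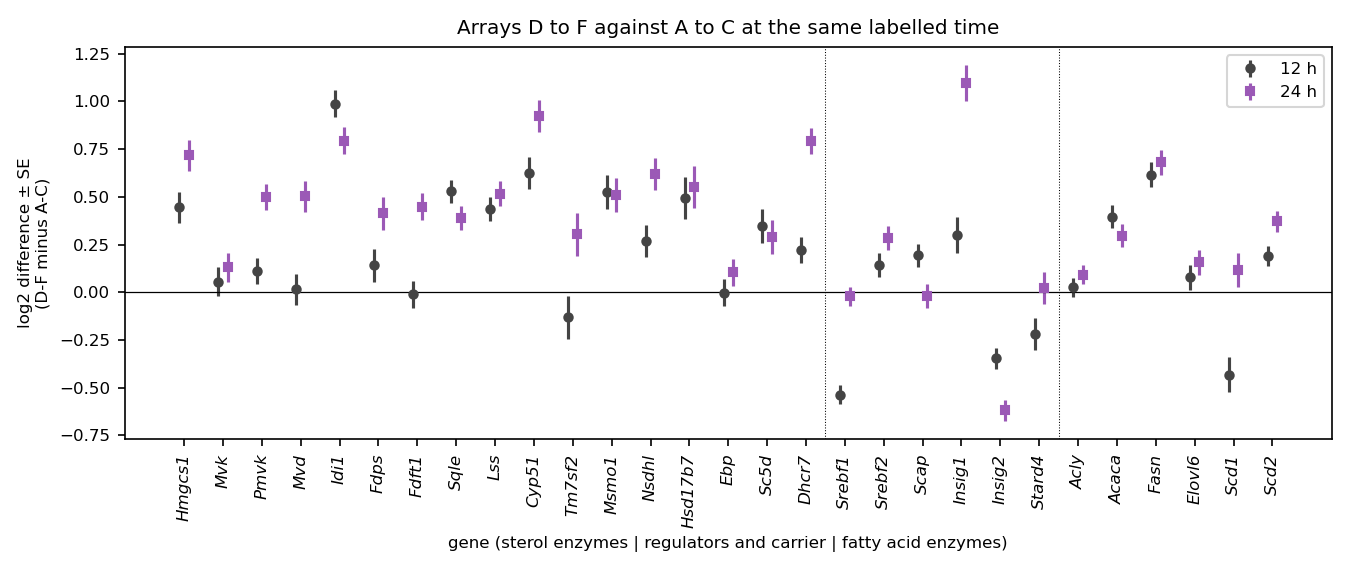
Log2 difference of arrays D to F from A to C at the same labelled time, with its standard error, for each of the 29 genes at 12 h (circles) and 24 h (squares). Most sterol enzymes lie above 0 at both times, Insig2 lies below 0 at both, and Srebf1 and Scd1 lie below 0 at 12 h.

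The change from 12 h to 24 h itself differed between the sets for 9 members. It was greater in D to F for 8 of them, where 8.59% of all genes were called that way, and smaller for Insig2, where 10.6% were. Insig1 had the largest difference: it rose by 0.68 ± 0.09 in D to F and was at 9.59, 9.66 and 9.43 at 12 h and 9.45, 9.49 and 9.39 at 24 h in A to C (interaction 0.80 ± 0.14, adjusted p = 0.000157). The first set's 16 h peak lies between those times, and no second-set arrays of 16 h were analysed here.

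Other probe sets of the same genes gave a partial check. For 27 other probe sets of members that rose to 36 h, 14 were also called higher, 12 were not called and 1, a dim Lss set, was lower. Of the 16 with a mean above 7, 11 were called higher. Hmgcs1 rose in all 4 of its other sets (0.43 to 1.31), and the second sets of Lss, Sc5d and Scd1 rose by 0.97, 1.17 and 1.08. For the fall to 72 h, 13 of 25 other sets were called lower and 12 were not called. The first set's rise from 8 h to 24 h was shared least, by 5 of 16 other sets and 5 of the 10 above 7, with the other 11 not called.

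Further genes of the pathways behaved unevenly. The counts below stand beside 23.1% of all genes risen and 21.4% fallen to 36 h, and 15.5% risen and 20.2% fallen from there to 72 h. Of 12 further fatty acid genes, 8 rose to 36 h and 2 fell, and then 5 fell and 1 rose to 72 h. Fads1, a desaturase of polyunsaturated fatty acids, rose by 1.25 ± 0.07. Lpin1, a phosphatidate phosphatase of triglyceride synthesis, rose by 1.17 ± 0.10 and fell by 0.66 ± 0.10, and Acss2, which makes acetyl-CoA from acetate, rose by 0.87 ± 0.11 and fell by 0.70 ± 0.11. Acacb, the mitochondrial acetyl-CoA carboxylase, fell by 0.64 ± 0.09 and then by 0.60 ± 0.09. Of 11 measured further isoprenoid and sterol genes, 8 rose and 2 fell to 36 h, then 2 rose and 3 fell. Npc2, which carries cholesterol out of lysosomes, rose by 0.81 ± 0.08 and again by 0.25 ± 0.08. Of 7 measured liver X receptor genes and SREBP proteases, 3 rose and 1 fell, then 1 rose and 2 fell. Abca1, the cholesterol exporter, rose by 0.87 ± 0.13 from 36 h to 72 h while the sterol enzymes fell.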

How the data were processed

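Each of 30 RNA samples was hybridised to its own Affymetrix mouse array. The deposited values are log2 intensities that the authors had normalized between arrays. The background correction, probe summary and normalization are not given in the sources used here. The submitters' processing notes name limma 3.8.3. Array medians over all 45101 probe sets lay between 6.34 and 6.39. Medians over the 18193 genes differed more, by 0.19 between 8 h and 24 h (A to C). Precision is limited by the number of arrays, 3 in each fitted group.

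Of 45101 probe sets, 64 controls, 9160 without a symbol and 932 with several were left out. The brightest of the 34945 others stood for each of 18193 genes. Symbols came from the platform annotation, which can be old. limma 3.58.1 in R 4.3.3 fitted 10 groups (time, with 12 h and 24 h divided into letters A to C and D to F) to all arrays, with no replicate block in the main tests, two-sided tests and Benjamini-Hochberg adjustment over all genes. The scripts were tested on simulated data. No 2 arrays within a group were identical (30 pairs). Same-lettered arrays were checked for deviations that moved together. Every correlation was over 0.1 between 36 h and 48 h (0.148 to 0.176), 36 h and 60 h (0.167 to 0.542) and 48 h and 72 h (0.166 to 0.412). No other groups had every correlation over 0.1, and 36 h and 72 h gave 0.0881 to 0.284. Among the 36 h to 72 h arrays 13 of 18 same-lettered pairs were over 0.1, against 1 of 21 elsewhere, so letters partly paired the late arrays.

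The members and lists were chosen with earlier results of these data known. Named genes are all members and, of each related list, up to 4 genes with the largest change. Outside this rule, Nanog and Dppa5a were named among the stem cell markers, and Lum was added after its values were seen. Alternatives were 2 further scalings, a filter on dim genes, other choices of probe set, other variance settings, array weights, fits of the compared groups alone, a replicate block and leaving out each array.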

Additional observations from a re-analysis of the deposited data

Results flagged for a closer look

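For 9 genes the change from 12 h to 24 h differed between arrays D to F and arrays A to C by limma's interaction test, with 3 arrays in each of the 4 groups. The difference (D to F minus A to C) was 0.39 for Pmvk, 0.49 for Mvd, 0.46 for Fdft1, 0.35 for Nsdhl, 0.57 for Dhcr7, 0.52 for Srebf1, 0.80 for Insig1 and 0.55 for Scd1. It was -0.27 for Insig2. Letters and array set cannot be told apart in these comparisons. Dixon's criterion was of no use here, since the fitted groups have 3 arrays each and the 6 arrays of 12 h or 24 h come from both sets.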

How the results depend on the processing

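The rise to 36 h and the fall to 72 h kept their direction under every alternative run, and the first-day changes of the first array set did not. With each array's median over the 18193 genes made equal, the level moved by 0.19 between 8 h and 24 h (A to C). It moved by 0.14 between 12 h and 36 h and by 0.18 between 12 h and 72 h. In the first set 8 members then rose and 7 fell, against 16 and 0, where 2371 of 18193 genes rose and 8566 fell. The medians were -0.001 for the sterol and 0.005 for the fatty acid enzymes, with -0.204 over all genes. Among members called in either fit, the signs of Mvk (-0.18), Pmvk (-0.001), Lss (-0.146), Acly (-0.126) and Fasn (-0.171) turned. Under the same scaling 18 members rose and 1 fell from 12 h to 24 h (D to F). Of all genes, 2023 rose and 5180 fell, and the medians were 0.275 and 0.047, with -0.126 over all genes. From 24 h to 72 h 1 rose, where 3154 of all genes rose, with medians of -0.374 and -0.354 (-0.131 over all genes). From 12 h to 36 h 1 fell, where 7803 of all genes fell, with medians of 0.35 and 0.123 (-0.178 over all genes). The share of risen genes among all called genes went from 52.1% to 28.1% for 12 h to 24 h (D to F). It went from 46.6% to 32.7% for 24 h to 72 h and from 43.2% to 25.5% for 12 h to 72 h. In the last of these 8 members were higher and 12 lower, beside 3554 and 10370 of all genes.

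From 8 h to 24 h, 1 member fell after a new quantile normalization (sterol median 0.122), without dim genes, with the mean of all probe sets (medians 0.074 and 0.071), with trended robust variances, or if arrays were weighted, and the sterol median was 0.119 without the _s, _x and _a probe sets. From 24 h to 72 h, 1 member rose after quantile normalization, 1 without those probe sets and 0 with the mean of all probe sets, against 2 (Hsd17b7 and Scap). With the mean of all probe sets 0 rose from 36 h to 72 h, against Scap, and the fatty acid median to 36 h was 0.207. Leaving out each array gave 0 to 1 falls and sterol medians of 0.1 to 0.22 from 8 h to 24 h, 1 to 3 rises from 24 h to 72 h and fatty acid medians of -0.398 to -0.32 from 36 h to 72 h.

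A fit of the 8 times over both sets gave 12 members higher and 2 lower at 72 h than at 8 h, with medians of 0.344 and 0.326. Blocking on array set gave 7 and 6, with medians of -0.055 and -0.057. Calls over all genes were not counted in either fit, so these member counts have no share to stand beside. Letters A to C gave 10 rises and 1 fall from 12 h to 24 h, against 23 and 0 for D to F. With the letter as a replicate block, 17 members rose from 8 h to 24 h, 23 from 12 h to 24 h (D to F), and 24 fell from 36 h to 72 h. It moved the calls of Hmgcs1 (0.193) and Acly (-0.117) past the threshold. No other call changed with this block. With a block among the 36 h to 72 h arrays alone, chosen after the data were seen, 25 members fell from 36 h to 48 h against 23, 11 fell from 48 h to 60 h with or without it, 4 rose from 60 h to 72 h against 3, and 23 fell from 36 h to 72 h with or without it. No block could be fitted where both sides share no letter (24 h D to F against 72 h, and 12 h D to F against 36 h). Over single members and alternatives, 5425 values kept their call, 46 gained a call and 111 lost one. Another 5 changed sign where the main or the alternative fit called them. The sign of values called in neither fit was not followed, so the 5425 can include changes of sign among them. Matches in the bases before the start alone were 1, 19, 19 and 5 members for the SREBP, NF-Y, Sp1 and E-box letters. The causes of these differences were not tested.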

Other observations

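Fatty acid oxidation, the reverse of the synthesis described above, had no common direction. Of 11 measured oxidation genes, 4 rose and 4 fell from 12 h to 36 h in the second array set, and 5 rose and 3 fell from 36 h to 72 h. Of all genes, 23.1% rose and 21.4% fell in the first step, and 15.5% rose and 20.2% fell in the second. Cpt1a, which brings long fatty acids into mitochondria, moved against the synthesis genes: it fell by 0.88 ± 0.12 to 36 h and rose by 0.79 ± 0.12 to 72 h. Acadvl, a dehydrogenase of very long fatty acids, rose by 0.43 ± 0.07 and then by 0.30 ± 0.07. Ch25h, which makes 25-hydroxycholesterol, was not called to 36 h (0.05 ± 0.25) and rose by 0.97 ± 0.25 to 72 h. Lbr, a nuclear envelope protein with sterol reductase activity, rose by 0.15 ± 0.06 and then fell by 0.50 ± 0.06.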
